A study of Mus musculus with 6 samples.

Results

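The mitochondrial solute carrier family was described in RNA of cultured mouse microglia, the resident macrophages of the brain, that had received extracellular vesicles (EVs) of neural stem cells or a control treatment. The members were all gene entries of the counts table whose symbol starts with Slc25a, with Ucp1, Ucp2, Ucp3, Mpc1 and Mpc2 added, which gave 53 of 48005 entries. Of these, 48 carry an Slc25a symbol, 52 are protein coding and 1 is a pseudogene, Slc25a5-ps. The EV-treated group (libraries A, B and C) and the control group (libraries A, B and C) were both microglia of the outbred CD1 mouse strain, with no engineered allele named. The EVs, membrane-bound particles that cells release, came from primary neural stem cells of the subventricular zone of CD1 mice and were collected by serial centrifugation. No dose of EVs, length of exposure, age of the animals or description of the control treatment is given in the sources used here. Nothing in the labels ties the replicates of a group to different mice or culture dishes, and the p-values below therefore speak of the variation among these 6 libraries, part of which may be technical.

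Carriers of this family sit in the mitochondrial inner membrane, which is closed to most metabolites, and move nucleotides, amino acids, carboxylates, phosphate, cofactors and iron between the cytosol and the matrix. They are encoded in the nucleus, made in the cytosol and inserted into the inner membrane by a dedicated import machinery. In macrophages, carriers for citrate, dicarboxylates, aspartate, glutamate and pyruvate link mitochondrial metabolism to lipid synthesis, cytosolic redox balance and inflammatory mediators, and Ucp2 is the uncoupling protein known for its high level in such cells. Mpc1 and Mpc2 form the pyruvate carrier and are unrelated to the Slc25 proteins in sequence.

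Total counts, summed over exon bins (stretches of annotated exon), were 133112063 to 142805303 in EV-treated libraries and 109744701 to 162544804 in control libraries; they exceed the number of reads stated per sample, so that a read may have been counted in more than 1 bin. Carriers took 223232 to 233558 of these counts in EV-treated libraries and 538203 to 1076414 in control libraries. Of 10 genes that mark microglia and macrophages, 7 fell and 3 were not called, and their summed level was 4286 to 4506 CPM (counts scaled to the usual common library total) in EV-treated libraries and 6287 to 7749 CPM in control libraries. Summed astrocyte markers stood at 92.6 to 130 CPM in EV-treated libraries and 3.43 to 5.10 CPM in control libraries; 4 of 5 tested rose, chiefly Slc1a2 and Gja1, while Gfap, Aqp4 and S100b were near 0 in every library. Oligodendrocyte lineage markers summed to 30.6 to 43.8 CPM in EV-treated libraries and 213 to 440 CPM in control libraries, where Cspg4 and Mbp were the main part and Mog was at or near 0; 2 of 5 tested fell and 1, the entry that holds Pdgfra, rose. Neural stem cell markers summed to 5.95 to 7.89 CPM in EV-treated libraries and 46.5 to 83.3 CPM in control libraries, a sum that is nearly all Nes. Of the 4 tested, Nes fell, while Egfr and Prom1 rose (median log2 fold change 1.04), and Sox2 was near 0. Neuronal markers stayed under 1 CPM in every library, and fibroblast and endothelial markers summed to 12.4 to 18.9 CPM in EV-treated libraries and 13.6 to 36.1 CPM in control libraries. Of the 4 of these tested, Col1a1 fell, and Dcn, a fibroblast gene, and Pecam1, an endothelial gene, rose (median log2 fold change 1.39). Over all entries tested, 33.0% rose and 33.5% fell, so that 2 of 5 oligodendrocyte lineage markers fallen (40.0%) is near that share. Of the microglia and macrophage markers 70.0% fell, and of the astrocyte markers tested 80.0% rose. The part of these markers in the results below was not tested. The log2 ratio of Y-linked counts (Ddx3y, Eif2s3y, Kdm5d and Uty) to those of the entry that holds Xist was -4.86, -4.90 and -5.51 in EV-treated A, B and C, against -1.35, -1.65 and -3.86 in control A, B and C, so the groups also differed in this ratio and control C stood apart from the other control libraries.

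In EV-treated microglia more carriers fell than rose. With edgeR's quasi-likelihood test over 16605 entries and a threshold of 0.05 on the adjusted p, 45 of the 53 members had enough counts to be tested. Of these, 8 rose (17.8% of the members tested, where 33.0% of all entries tested rose) and 22 fell (48.9%, where 33.5% of all entries fell), while 15 were not called. By at least 2-fold, 3 rose (6.67%, against 20.4% of all entries) and 13 fell (28.9%, against 19.6%). Ucp3, Slc25a47 and Slc25a34 did not reach the filter's level in every library of both groups, and without them 8 rose and 21 fell, 12 of these falls by at least 2-fold. The share called in either direction, 66.7%, was close to the 66.5% of all entries. The median log2 fold change of the members was -0.45, and that of all entries -0.02. In 10 members (22.2%) every EV-treated library lay above every control library, against 35.2% of all entries, and in 26 (57.8%) every EV-treated library lay below, against 36.1%. In bulk RNA, fewer cells of a type and less RNA per cell cannot be told apart, here or in any result below.

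The counts of risen members depend on how libraries were scaled. Scaling by trimmed mean of M values (TMM) gave factors of 0.855 to 0.921 in EV-treated libraries and 1.09 to 1.16 in control libraries. With library totals alone the median of all entries moved to -0.38 and that of the members to -0.82, 4 members rose and 29 fell, and rises made up 34.0% of all calls over the table, against 49.7% with TMM. With the sex-linked ratio as a covariate, chosen after seeing the data, 6 members rose and 16 fell. Without control C, 7 members rose and 25 fell.

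**Figure D1:**
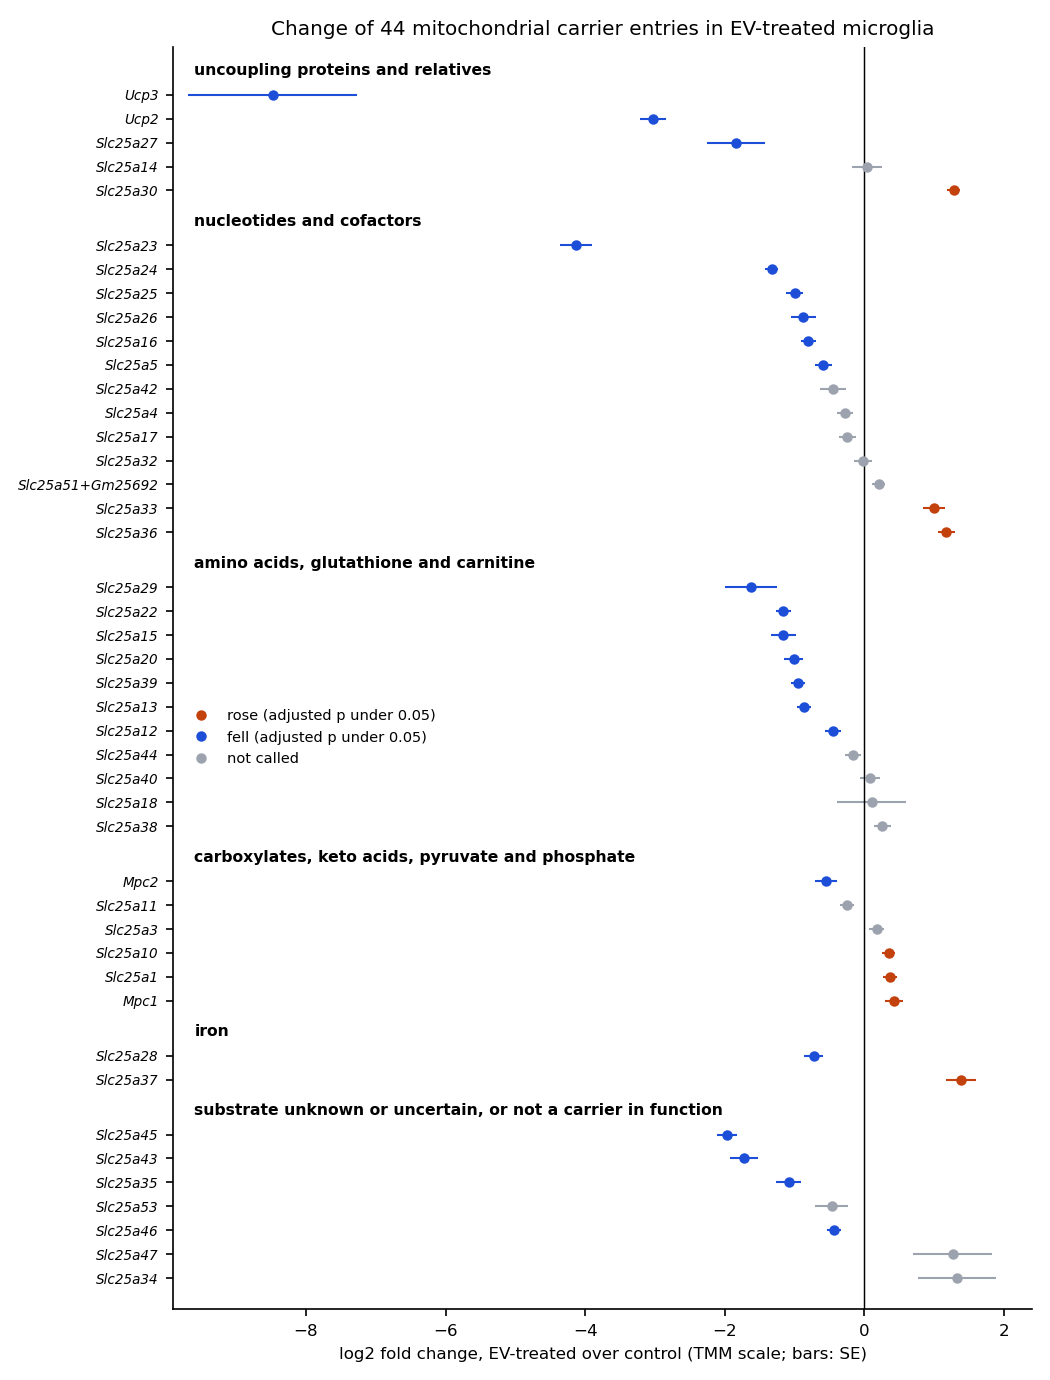
Log2 fold change of 44 of the 45 carrier entries tested, EV-treated over control (x axis, TMM scale; points with SE bars), listed by what they carry. Falls run down to -4.13 for Slc25a23 and, for Ucp3, which had no counts in EV-treated libraries, to a fitted value that is no measured fold; the highest called rise is that of Slc25a37 at 1.39.

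The difference between groups in the summed level of the family was mostly Ucp2. All 53 entries together had 1928, 2007 and 1854 CPM in EV-treated A, B and C, against 5170, 4279 and 5750 CPM in control A, B and C. Ucp2 made up 20.7% to 21.6% of the carrier counts in EV-treated libraries and 59.2% to 70.2% in control libraries. Without Ucp2 the sums came to 1511, 1581 and 1471 CPM in EV-treated A, B and C, against 1740, 1747 and 1715 CPM in control A, B and C.

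Among the uncoupling proteins and their relatives, 3 of 5 tested members fell (60.0%, against 33.5% of all entries) and 1 rose, where 33.0% of all entries did. The median log2 fold change was -1.84, the value of Slc25a27. Both the share and the median count Ucp3, which passed the filter through its control counts alone and so could only be a fall. Ucp2, which exports carboxylates such as aspartate from mitochondria and limits their production of reactive oxygen, had 417, 426 and 383 CPM in EV-treated A, B and C, against 3430, 2532 and 4035 CPM in control A, B and C. The groups lay far apart, and the mean of 408 ± 22.5 CPM in EV-treated libraries stood against 3332 ± 756 CPM in control libraries (SD, n = 3 each). Its log2 fold change was -3.03 (SE 0.18, adjusted p = 5.2e-07), an 8.16-fold lower level. By counts, Ucp2 ranked 434 of all tested entries in EV-treated microglia and 16 in control microglia, with 0.0353% to 0.0364% and 0.293% to 0.468% of all counts in those groups. The exons of Ucp2 share 305 bases with those of Dnajb13 on the other strand, and the strand setting of the counting is not given, so reads in that stretch cannot be assigned.

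Ucp3, the uncoupling protein of muscle and brown fat, lies on the same strand of chromosome 7, with 6904 bases between its end and the start of Ucp2. It had 0 counts in all 3 EV-treated libraries, against 31, 21 and 108 counts in control A, B and C. Set against a floor of 3 counts per library, this was at least 13.2-fold lower in EV-treated libraries, and at least 8.12-fold lower without control C, the highest; the floor covers counting error only. Ucp3 passed the filter through its control counts alone, so its place among the falls is a description. Slc25a27, a brain uncoupling protein relative, had 0.0888, 0.105 and 0.0937 CPM in EV-treated A, B and C, against 0.266, 0.299 and 0.467 CPM in control A, B and C, without overlap (log2 fold change -1.84, SE 0.41, adjusted p = 0.0029), at a level far below that of Ucp2. Slc25a14, another brain relative, averaged 3.73 ± 1.14 CPM in EV-treated libraries and 3.64 ± 0.293 CPM in control libraries and was not called. Ucp1, the heat-producing protein of brown fat, did not reach the filter in these cells.

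Slc25a30, the kidney mitochondrial carrier of this branch, ran the other way. It had 30.2, 29.6 and 29.1 CPM in EV-treated A, B and C, against 12.05, 11.97 and 12.66 CPM in control A, B and C. The libraries of each group lay close together and the groups did not overlap (log2 fold change 1.28, SE 0.10, adjusted p = 2.3e-06). It was the 11th highest member per length over all libraries.

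The promoter windows of Ucp2 and Slc25a30 are shown because the genes moved in opposite directions within this branch. They cover 250 bases before to 50 after a RefSeq start site (GRCm38.p6), 5′ to 3′ on the gene's strand; capitals mark letters of a motif search over both strands for the CCAAT box (CCAAT), the ACGTG core, the cyclic AMP response element (TGACGTCA), the amino acid response motif (TGATGNAA) and, by name, the NRF1, interferon-stimulated response element and kappaB motifs.
Ucp2, chr7:100493108-100493407, plus strand: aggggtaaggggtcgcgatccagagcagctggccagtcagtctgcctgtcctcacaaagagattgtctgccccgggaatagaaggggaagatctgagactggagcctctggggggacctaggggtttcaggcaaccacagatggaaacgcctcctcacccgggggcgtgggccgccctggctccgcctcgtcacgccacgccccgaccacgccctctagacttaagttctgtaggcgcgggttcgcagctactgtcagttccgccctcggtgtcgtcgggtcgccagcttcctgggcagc
Slc25a30, chr14:75786988-75787287, minus strand: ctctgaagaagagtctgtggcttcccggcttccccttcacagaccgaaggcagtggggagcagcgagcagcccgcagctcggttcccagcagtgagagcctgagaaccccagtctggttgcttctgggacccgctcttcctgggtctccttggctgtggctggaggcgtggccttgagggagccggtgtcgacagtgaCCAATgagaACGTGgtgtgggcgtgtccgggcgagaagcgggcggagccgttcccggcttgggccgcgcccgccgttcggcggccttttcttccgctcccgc
No letters of these motifs were in the Ucp2 window. The Slc25a30 window held CCAAT from position -52 and ACGTG from position -43, counted from the start site. A match is a description of the letters and not a site of binding.

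**Figure D2:**
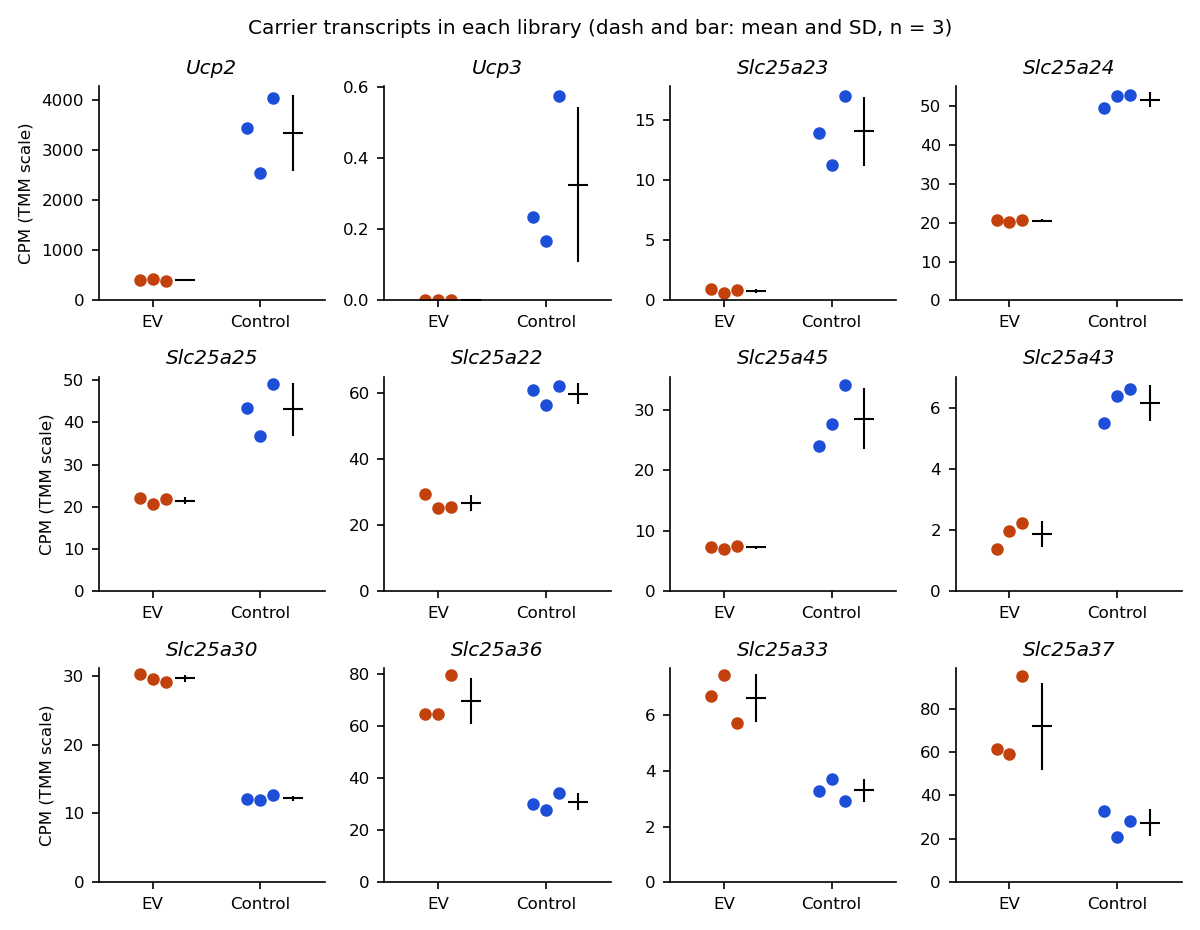
CPM (y axis, linear, from 0) of 12 carriers in each library, EV-treated in orange on the left and control in blue on the right of each panel; dash and bar give mean and SD (n = 3). The EV-treated libraries lie lower in the first 8 panels and higher in the last 4, without overlap. Most of these genes met a rule that required no overlap, which 71.3% of all entries tested showed.

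All 3 calcium-regulated ATP-Mg/phosphate carriers fell. These proteins exchange ATP-Mg for phosphate and so set the adenine nucleotide pool of the matrix, and they bind calcium through EF hands that face the space between the membranes. Slc25a23 had 0.944, 0.589 and 0.867 CPM in EV-treated A, B and C, against 13.9, 11.3 and 17.1 CPM in control A, B and C. Every EV-treated library was below 1 CPM and every control library above 11, a 17.6-fold lower level (log2 fold change -4.13, SE 0.23, adjusted p = 2.9e-07) and rank 230 of 16605 from the deepest fall. Slc25a24 had 20.8, 20.1 and 20.7 CPM in EV-treated A, B and C, against 49.4, 52.6 and 52.7 CPM in control A, B and C. The spread within each group was a few percent of its mean, and the log2 fold change was -1.33 (SE 0.09, adjusted p = 1.2e-06). Slc25a25 had 22.1, 20.6 and 21.7 CPM in EV-treated A, B and C, against 43.3, 36.7 and 49.1 CPM in control A, B and C, again without overlap (log2 fold change -1.002, SE 0.12, adjusted p = 5.9e-05). The group's last member, Slc25a41, which lacks the calcium-binding part, was below the filter on low counts; no member below it had more than 18 counts in a library.

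The makeup of this group shifted with the fall of Slc25a23. Per exon length, Slc25a23 held 1.97%, 1.29% and 1.82% of the summed counts of the 4 genes in EV-treated A, B and C, against 11.7%, 9.62% and 13.0% in control A, B and C. Slc25a25 held 31.0%, 30.4% and 30.8% in EV-treated A, B and C, against 24.4%, 21.1% and 25.2% in control A, B and C, and neither share overlapped between groups. Slc25a24 held 67.3% ± 0.702 in EV-treated libraries and 65.0% ± 3.86 in control libraries (SD, n = 3 each), which overlapped. Such shares do not depend on scaling between libraries, but they do depend on exon length, 3431 bases for Slc25a24 and 7862 for Slc25a25. Per kb of the single bin with the most counts, Slc25a24 averaged 3.76 CPM and Slc25a25 4.01 CPM in EV-treated libraries. In control libraries these averages were 9.29 and 8.14 CPM. An exact permutation test of 3 against 3 libraries (2-sided) cannot go below p = 0.1, which 10 of 13 shares tested in the family reached, each with an adjusted p of 0.13. Shares of other gene groups were not computed, so this count has no background of its own. Of all single entries tested, 71.3% did not overlap between groups. Shares within a paralog group also depend on each other, because together they make up the whole.

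Usage of a downstream first exon of Slc25a25 differed between the groups, on few counts. Within the gene, a first exon of 212 bases (bin 10 of 32 from the 5′ end, the start of transcript Slc25a25-203, GENCODE vM21 on GRCm38) held 2.12%, 1.15% and 2.91% of the gene's counts in EV-treated A, B and C, against 0.316%, 0.279% and 0.248% in control A, B and C. All EV-treated libraries lay above all control libraries (edgeR's diffSpliceDGE, adjusted p = 6.4e-12 over all bins, of which 3.39% passed), on 27 to 81 counts in EV-treated and 13 to 23 in control libraries. The upstream first exon (bin 2, chosen after its values were seen) held 2.81% ± 0.227 in EV-treated libraries and 4.37% ± 0.372 in control libraries (SD, n = 3 each; adjusted p = 0.064), without overlap. A retained-intron bin of 3180 bases held 0.0724% in EV-treated libraries and 0.302% in control libraries, on 0 to 3 counts in EV-treated and 12 to 39 in control libraries. The exons of Slc25a25 share 379 bases with Naif1 on the other strand.

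The RefSeq windows nearest to both first exons of Slc25a25 and the window of Slc25a23, the carrier with the deepest fall among those with counts in both groups, read as follows, with capitals as above. The RefSeq start beside the 212-base exon lies 61 bases upstream of that exon as counted, so the window ends before it, with 11 bases in between, and the start beside the upstream exon lies 48 bases upstream of bin 2.
Slc25a25, nearest start to the 212-base first exon, chr2:32424017-32424316, minus strand: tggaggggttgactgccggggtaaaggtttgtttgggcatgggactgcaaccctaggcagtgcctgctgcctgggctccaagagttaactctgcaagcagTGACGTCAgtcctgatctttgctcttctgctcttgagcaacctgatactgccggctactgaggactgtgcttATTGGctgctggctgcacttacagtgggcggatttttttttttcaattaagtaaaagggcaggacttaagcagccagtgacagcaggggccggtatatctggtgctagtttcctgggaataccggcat
Slc25a25, upstream start, chr2:32451421-32451720, minus strand: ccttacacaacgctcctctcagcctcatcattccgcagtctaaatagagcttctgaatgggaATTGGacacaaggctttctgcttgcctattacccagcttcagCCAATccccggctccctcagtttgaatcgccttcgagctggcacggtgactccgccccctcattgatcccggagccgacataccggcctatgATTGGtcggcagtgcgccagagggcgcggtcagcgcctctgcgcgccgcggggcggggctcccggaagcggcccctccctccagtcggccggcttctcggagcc
Slc25a23, chr17:57059793-57060092, minus strand: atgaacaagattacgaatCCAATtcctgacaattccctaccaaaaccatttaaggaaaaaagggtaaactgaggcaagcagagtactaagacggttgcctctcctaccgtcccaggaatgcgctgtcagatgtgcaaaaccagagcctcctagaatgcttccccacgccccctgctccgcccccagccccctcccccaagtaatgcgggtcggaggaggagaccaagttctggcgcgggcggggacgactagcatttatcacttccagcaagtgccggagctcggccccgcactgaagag
The window nearest to the exon whose share was higher in EV-treated libraries held the cyclic AMP response element from position -150 and a CCAAT box, read as ATTGG on the other strand, from position -78. The upstream window held 3 CCAAT boxes and no cyclic AMP response element, and the Slc25a23 window held CCAAT from position -232. Over all 32851 RefSeq windows, 1.79% held the cyclic AMP response element and 37.4% the CCAAT box. Among 52 windows of 41 members, 2 held the cyclic AMP response element, in Slc25a25 and Slc25a36, and 24 held the CCAAT box (46.2%).

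The adenine nucleotide translocators, which exchange ADP for ATP across the inner membrane and are among the most abundant proteins there, moved little by comparison. Slc25a5 (ANT2) had 119, 136 and 105 CPM in EV-treated A, B and C, against 174, 193 and 175 CPM in control A, B and C. The groups did not overlap (log2 fold change -0.59, SE 0.12, adjusted p = 0.0017; adjusted p = 0.13 with the sex-linked covariate). Slc25a4 (ANT1) had 71.3, 78.9 and 65.1 CPM in EV-treated A, B and C, against 87.8, 93.9 and 79.1 CPM in control A, B and C, and narrowly missed the threshold (log2 fold change -0.28, SE 0.11, adjusted p = 0.053). Leaving out EV-treated B or control C brought it under the threshold, with adjusted p-values of 0.031 and 0.027, while with the sex-linked covariate its log2 fold change was -0.0081 (adjusted p = 0.98). Per exon length, Slc25a4 held 29.6%, 28.9% and 30.2% of the translocator counts in EV-treated A, B and C, against 26.1%, 25.4% and 24.0% in control A, B and C, without overlap. Slc25a31, the germ cell translocator, was below the filter.

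The pyrimidine nucleotide carriers both rose. Slc25a36, which moves cytidine and uridine nucleotides, had 64.5, 64.4 and 79.6 CPM in EV-treated A, B and C, against 30.2, 28.0 and 34.4 CPM in control A, B and C. Every EV-treated library lay above every control library (log2 fold change 1.17, SE 0.13, adjusted p = 2.4e-05). Slc25a33, which moves uridine and thymidine nucleotides, had 6.66, 7.41 and 5.70 CPM in EV-treated A, B and C, against 3.29, 3.72 and 2.90 CPM in control A, B and C, also without overlap (log2 fold change 0.998, SE 0.16, adjusted p = 0.00041). The share of Slc25a33 in the summed level per length of the pair was 32.7% ± 5.33 in EV-treated libraries and 35.3% ± 5.17 in control libraries (SD, n = 3 each), with overlapping groups (exact permutation test, 2-sided, p = 0.6).

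The Slc25a36 window is shown because it held 3 of the motifs searched.
Slc25a36, chr9:97110992-97111291, minus strand: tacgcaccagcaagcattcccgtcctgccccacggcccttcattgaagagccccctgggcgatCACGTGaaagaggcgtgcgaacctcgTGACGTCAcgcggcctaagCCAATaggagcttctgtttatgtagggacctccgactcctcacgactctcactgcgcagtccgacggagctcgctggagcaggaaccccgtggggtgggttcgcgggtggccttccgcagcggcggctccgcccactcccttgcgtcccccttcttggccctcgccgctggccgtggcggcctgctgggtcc
The ACGTG core was present on both strands as CACGTG, from position -187, followed by the cyclic AMP response element from position -161 and CCAAT from position -142. The ACGTG core was in 13 of 52 member windows (25.0%) and in 19.6% of all windows, the kappaB motif in 4 member windows (7.69%) and 8.46% of all, and the interferon-stimulated response element in 2 member windows (3.85%) and 3.44% of all. The NRF1 and amino acid response motifs were in no member window and in 0.971% and 3.97% of all windows. Member windows were rich in CpG, with a median of 15.5 CpG dinucleotides per 300 bases, against 7 over all windows, and a median GC content of 59.8%, against 52.7%.

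Among the remaining nucleotide and cofactor carriers, Slc25a16 and Slc25a26 fell. Slc25a16, linked to coenzyme A supply, averaged 8.49 ± 0.690 CPM in EV-treated libraries and 14.8 ± 0.311 CPM in control libraries (SD, n = 3 each; log2 fold change -0.80, adjusted p = 0.00017). Slc25a26, which imports S-adenosylmethionine, averaged 5.25 ± 1.23 CPM in EV-treated libraries and 9.64 ± 0.728 CPM in control libraries (log2 fold change -0.88, adjusted p = 0.0018; adjusted p = 0.17 with the sex-linked covariate). Slc25a42 (coenzyme A), Slc25a17 (the peroxisomal cofactor carrier), Slc25a32 (folate and flavin) and the joined entry of Slc25a51 (NAD) with Gm25692 were not called, with log2 fold changes of -0.46, -0.25, -0.02 and 0.20; counts of the joined entry cannot be split between its genes. Slc25a42 came under the threshold without EV-treated C (adjusted p = 0.037) or control C (adjusted p = 0.032), and had an adjusted p of 0.66 with the sex-linked covariate.

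Of the carriers of amino acids, glutathione or carnitine, 7 of 11 tested fell (63.6%, against 33.5% of all entries) and none rose, against 33.0% (median log2 fold change -0.86). Their summed level was 263 ± 11.5 CPM in EV-treated libraries and 458 ± 15.2 CPM in control libraries (SD, n = 3 each). Slc25a22, which carries glutamate with a proton, had 29.4, 25.1 and 25.6 CPM in EV-treated A, B and C, against 60.8, 56.2 and 62.0 CPM in control A, B and C. The groups did not overlap (log2 fold change -1.16, SE 0.10, adjusted p = 7.3e-06). Its paralog Slc25a18 had 0.234, 0.158 and 0.601 CPM in EV-treated A, B and C, against 0.281, 0.268 and 0.377 CPM in control A, B and C, and was not called (log2 fold change 0.10, and -0.66 without EV-treated C, the highest), so the pair was almost wholly Slc25a22 in both groups.

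The aspartate/glutamate carriers, which take part in the malate-aspartate shuttle and are activated by cytosolic calcium, both fell. Slc25a13 (citrin) had 13.3, 14.3 and 12.6 CPM in EV-treated A, B and C, against 24.2, 24.0 and 25.0 CPM in control A, B and C, without overlap (log2 fold change -0.86, SE 0.10, adjusted p = 5.0e-05). Slc25a12 (aralar) had 33.9, 42.1 and 33.9 CPM in EV-treated A, B and C, against 50.4, 48.2 and 52.0 CPM in control A, B and C, a smaller distance (log2 fold change -0.45, SE 0.11, adjusted p = 0.0056; adjusted p = 0.10 with the sex-linked covariate). Slc25a12 held 56.8%, 60.4% and 58.1% of the pair's level per length in EV-treated A, B and C, against 51.9%, 50.9% and 51.8% in control A, B and C. The size of this share and of its shift rests on the exon lengths used, 7342 bases for Slc25a12 and 3798 for Slc25a13. Per kb of the single bin with the most counts, Slc25a12 averaged 11.8 CPM and Slc25a13 2.27 CPM in EV-treated libraries. In control libraries these averages were 17.2 and 3.75 CPM, so Slc25a12 was the larger part by far in both groups.

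Glutathione enters mitochondria through Slc25a39, the third most highly expressed member per length over all libraries. It had 131, 137 and 130 CPM in EV-treated A, B and C, against 272, 253 and 248 CPM in control A, B and C. The groups were widely separated (log2 fold change -0.96, SE 0.10, adjusted p = 2.0e-05). Its paralog Slc25a40 averaged 5.48 ± 0.176 CPM in EV-treated libraries and 5.18 ± 0.659 CPM in control libraries and was not called, and Slc25a39 made up 98.7% of the pair per length in EV-treated libraries and 99.3% in control libraries.

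Slc25a20, the carnitine-acylcarnitine carrier of fatty acid oxidation, had 8.94, 10.3 and 7.57 CPM in EV-treated A, B and C, against 18.8, 18.5 and 16.8 CPM in control A, B and C, without overlap (log2 fold change -1.02, SE 0.14, adjusted p = 0.00011). Slc25a15, the ornithine carrier of the urea cycle, had 2.62, 2.52 and 1.73 CPM in EV-treated A, B and C, against 5.27, 5.05 and 5.02 CPM in control A, B and C, also without overlap (log2 fold change -1.16, SE 0.18, adjusted p = 0.00036). Slc25a29, a carrier of basic amino acids, had 0.194, 0.211 and 0.109 CPM in EV-treated A, B and C, against 0.455, 0.504 and 0.621 CPM in control A, B and C (log2 fold change -1.62, SE 0.37, adjusted p = 0.0034). That call was lost when the gene was read from its single bin with the most counts (log2 fold change -0.88, adjusted p = 0.090). Slc25a44 (branched-chain amino acids) and Slc25a38 (glycine for heme synthesis) were not called, with log2 fold changes of -0.16 and 0.26, and Slc25a2, a second ornithine carrier, was below the filter.

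Of the carriers of carboxylates, phosphate and pyruvate, 3 of 6 tested rose, where 33.0% of all entries did, and 1 fell (16.7%, against 33.5%; median log2 fold change 0.26); the difference from the other classes was not tested. Slc25a1, which exports citrate to the cytosol for lipid synthesis, had 83.0, 87.1 and 84.5 CPM in EV-treated A, B and C, against 69.4, 67.9 and 60.5 CPM in control A, B and C. The groups did not overlap (log2 fold change 0.36, SE 0.10, adjusted p = 0.0079), but with library totals alone the fold change was -0.00060, so its rise rests on the scaling. Slc25a10, which exchanges malate and succinate for phosphate, averaged 61.5 ± 1.56 CPM in EV-treated libraries and 48.4 ± 1.83 CPM in control libraries (log2 fold change 0.35, adjusted p = 0.0070), with -0.02 under library totals alone, an adjusted p of 0.053 without control A and of 0.26 with the sex-linked covariate.

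Slc25a11, the oxoglutarate/malate carrier, had 102, 97.3 and 91.2 CPM in EV-treated A, B and C, against 117, 121 and 107 CPM in control A, B and C, lower without overlap but not called (log2 fold change -0.25, SE 0.10, adjusted p = 0.051; 0.031 without control C, and 0.84, at a log2 fold change of -0.05, with the sex-linked covariate). Slc25a3, which imports the phosphate for ATP synthesis and also copper, had 396, 411 and 364 CPM in EV-treated A, B and C, against 339, 358 and 341 CPM in control A, B and C. It was higher without overlap and was not called (log2 fold change 0.17, SE 0.11, adjusted p = 0.17; -0.20 with library totals alone). Slc25a21, the oxodicarboxylate carrier, was below the filter.

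The subunits of the pyruvate carrier went apart. Mpc1 had 42.2, 52.2 and 37.7 CPM in EV-treated A, B and C, against 33.0, 32.5 and 33.0 CPM in control A, B and C. All EV-treated libraries were above the controls, with EV-treated B the highest (log2 fold change 0.42, SE 0.13, adjusted p = 0.014; 0.14 once the sex-linked ratio was a covariate and 0.72 on library totals alone). Mpc2 had 14.6, 20.2 and 13.3 CPM in EV-treated A, B and C, against 21.8, 24.8 and 24.0 CPM in control A, B and C, lower without overlap (log2 fold change -0.55, SE 0.16, adjusted p = 0.012; adjusted p = 0.20 with the sex-linked covariate). Per length, Mpc1 held 91.1%, 90.1% and 90.9% of the pair in EV-treated A, B and C, against 84.3%, 82.2% and 82.9% in control A, B and C. This share does not depend on scaling, and its groups did not overlap. Its size rests on the exon lengths used, 2082 bases for Mpc1 and 7344 for Mpc2. Per kb of the single bin with the most counts, Mpc1 averaged 96.5 CPM and Mpc2 25.4 CPM in EV-treated libraries. In control libraries these averages were 73.3 and 42.3 CPM, a smaller excess of Mpc1 than per exon length. The exons of Mpc1 share 480 bases with the antisense entry 4930506C21Rik.

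The iron carriers also went apart. Slc25a37 (mitoferrin 1), which brings iron into mitochondria for heme and iron-sulfur clusters and is best known from red cell precursors, had 61.5, 59.1 and 95.0 CPM in EV-treated A, B and C, against 33.1, 20.9 and 28.5 CPM in control A, B and C. EV-treated C was the highest, and the groups did not overlap (log2 fold change 1.39, SE 0.22, adjusted p = 0.00031). With the sex-linked covariate the adjusted p was 0.068 (log2 fold change 1.16). Slc25a28 (mitoferrin 2), the form of most other tissues, had 5.34, 6.59 and 5.42 CPM in EV-treated A, B and C, against 9.35, 10.1 and 9.29 CPM in control A, B and C, lower without overlap (log2 fold change -0.73, SE 0.13, adjusted p = 0.00090; adjusted p = 0.072 with the sex-linked covariate). Slc25a28 held 25.7%, 30.7% and 18.5% of the pair's level per length in EV-treated A, B and C, against 52.9%, 65.9% and 56.5% in control A, B and C. By this measure mitoferrin 1 was the larger part in every EV-treated library and the smaller part in every control library. Its place in control libraries rests on the exon lengths used, 6021 bases for Slc25a37 and 1514 for Slc25a28. In CPM Slc25a37 was the higher of the pair in every control library. Per kb of the single bin with the most counts, Slc25a37 averaged 6.42 CPM and Slc25a28 5.96 CPM in control libraries.

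**Figure D3:**
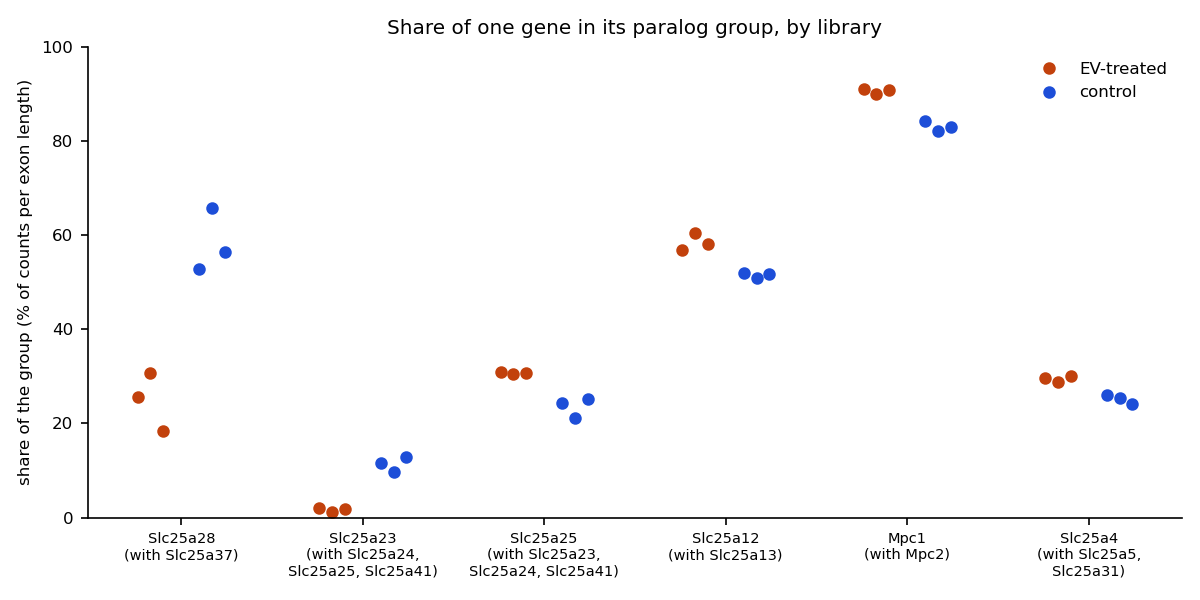
Share of a named gene in the summed counts per exon length of its paralog group (y axis, percent), 1 point per library, EV-treated in orange left of control in blue. The groups do not overlap in any of the 6 shares shown. The shares that did overlap, those of Slc25a24, Slc25a31 and Slc25a33, are left out. The widest gap is that of Slc25a28, with 18.5% to 30.7% in EV-treated libraries and 52.9% to 65.9% in control libraries. The size of each share depends on the exon lengths used.

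The rise of Slc25a37 was not even along the gene, a pattern chosen after its values were seen. The bin that covers the far end of the last exon, 2325 bases of 3′ untranslated region (bin 11 of 12 from the 5′ end; chr14:69241851-69244175, GRCm38, minus strand), held 12.8%, 11.3% and 13.4% of the gene's counts in EV-treated A, B and C, against 37.1%, 39.3% and 38.1% in control A, B and C. The share was lower in every EV-treated library (adjusted p = 5.2e-05 over all bins). On the log2 CPM scale this bin differed by -0.24 between groups, EV-treated minus control, while the 6 other tested bins differed by 1.65 to 2.13. Bins annotated to a retained-intron transcript alone or with a decay transcript (bins 8 and 7) held 22.7% and 12.5% in EV-treated libraries and 13.5% and 7.43% in control libraries, and neither passed the threshold (adjusted p = 0.13 and 0.15). Read from its single bin with the most counts, the gene's log2 fold change was 1.73. The entry shares 381 bases with the antisense entry of Gm27223 and Gm31748.

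**Figure D4:**
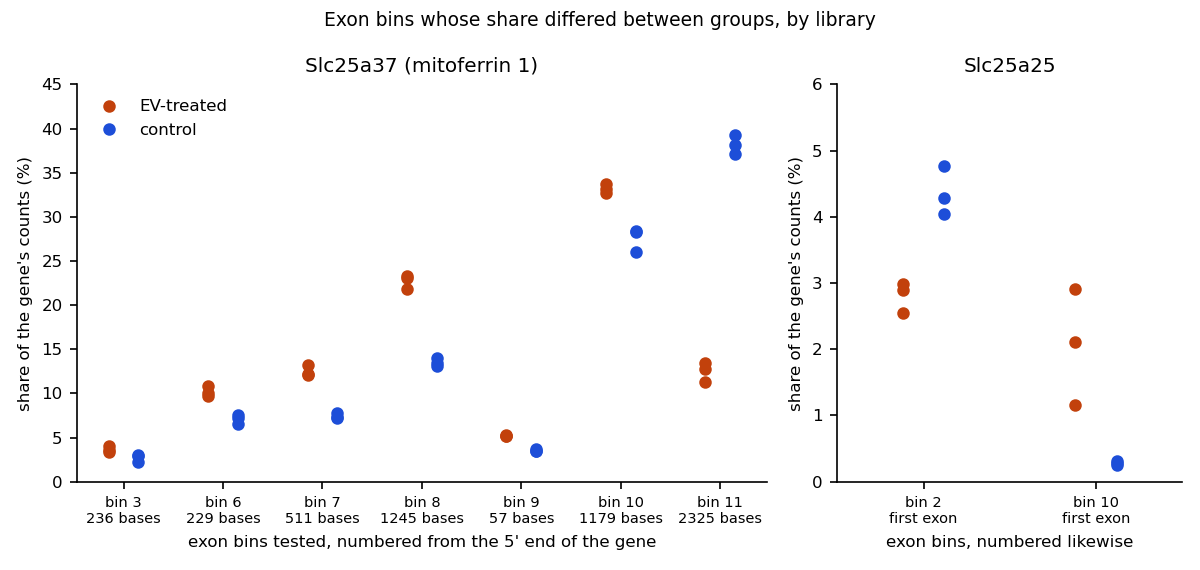
Share of a gene's counts in single exon bins (y axes, percent), 1 point per library, EV-treated in orange left of control in blue; on the left the 7 tested bins of Slc25a37 in order from the 5′ end, on the right 2 first exons of Slc25a25. In Slc25a37 the last bin holds 11.3% to 13.4% in EV-treated libraries and 37.1% to 39.3% in control libraries.

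Bin usage differed in 10 of 39 members that could be tested (25.6%, where 28.1% of 11515 genes did), so the family was near the background, and 18 of 590 bins of members passed (3.05%, where 3.39% of all single bins did). Besides Slc25a25 and Slc25a37 these were Slc25a22, Ucp2, Slc25a12, Slc25a3, Slc25a39, Slc25a44, Slc25a36 and Slc25a10. In Slc25a12 a bin of 3627 bases at the end of the 3′ untranslated region held 1.30% ± 0.330 of the gene's counts in EV-treated libraries and 3.10% ± 0.186 in control libraries (SD, n = 3 each; adjusted p = 5.0e-06). Its second exon held 1.41% ± 0.163 in EV-treated libraries and 2.77% ± 0.393 in control libraries. In Slc25a22 a retained-intron bin of 426 bases had 1, 0 and 0 counts in EV-treated A, B and C, against 38, 22 and 53 counts in control A, B and C. A first-exon bin of 36 bases in this gene held 0.590% in EV-treated libraries and 0.154% in control libraries. That bin had only 20, 13 and 25 counts in EV-treated A, B and C, against 7, 9 and 29 in control A, B and C. In Ucp2 the bins at the very 5′ end held 0.0519% and 0.0923% in EV-treated libraries and 0.00940% and 0.0293% in control libraries, while their own levels differed by -0.54 and -1.35 on the log2 CPM scale, less than the gene as a whole. These bins are 17 and 10 bases long. They had 21 to 33 and 39 to 55 counts in EV-treated libraries, against 30 to 83 and 90 to 229 in control libraries. Retained-intron bins of Slc25a3 held 0.106% and 0.876% in EV-treated libraries and 0.244% and 1.21% in control libraries, of which the first passed the threshold (adjusted p = 0.00018) and the second did not (adjusted p = 0.10). The 5′ bins of Slc25a39 held 0.181% and 0.327% in EV-treated libraries and 0.0709% and 0.168% in control libraries. They had 26 to 34 and 33 to 75 counts in EV-treated libraries, against 20 to 35 and 49 to 71 in control libraries.

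Of the members whose substrate is unknown or uncertain, or that are not carriers in function, 4 of 7 tested fell (57.1%, against 33.5% of all entries) and none rose, against 33.0%. Slc25a45 had 7.26, 7.08 and 7.53 CPM in EV-treated A, B and C, against 24.0, 27.6 and 34.0 CPM in control A, B and C. The groups were far apart (log2 fold change -1.97, SE 0.14, adjusted p = 1.6e-06). Slc25a43, on the X chromosome, had 1.40, 1.96 and 2.23 CPM in EV-treated A, B and C, against 5.51, 6.37 and 6.61 CPM in control A, B and C, without overlap (log2 fold change -1.73, SE 0.20, adjusted p = 3.8e-05). Slc25a35 had 1.71, 1.68 and 1.41 CPM in EV-treated A, B and C, against 3.51, 2.92 and 3.73 CPM in control A, B and C (log2 fold change -1.08, SE 0.18, adjusted p = 0.00046). It shares 1151 bases with Rangrf on the other strand, and read from its single bin with the most counts it was not called (log2 fold change -0.46, adjusted p = 0.098).

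Slc25a46, an outer membrane protein of mitochondrial shape and lipid transfer, averaged 20.4 ± 1.30 CPM in EV-treated libraries and 27.6 ± 0.168 CPM in control libraries (SD, n = 3 each; log2 fold change -0.43, adjusted p = 0.0032; adjusted p = 0.13 with the sex-linked covariate). Slc25a53, Slc25a47 and Slc25a34 were tested and not called, with log2 fold changes of -0.47, 1.26 and 1.33 and levels under 3 CPM in every library. Slc25a47 came under the threshold without control B (adjusted p = 0.027) and Slc25a34 without EV-treated A (adjusted p = 0.045); with the sex-linked covariate their adjusted p-values were 0.034 and 0.43. The 8 members below the filter were Slc25a2, Slc25a21, Slc25a31, Slc25a41, Slc25a48, Slc25a54, Slc25a5-ps and Ucp1.

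Per kb of exon, the order of the leading members differed between the groups. In EV-treated libraries Slc25a5 had 73.0, Slc25a3 70.3, Ucp2 58.4, Slc25a39 48.1, Slc25a11 45.6, Slc25a1 39.0, Slc25a4 30.5 and Mpc1 21.1 CPM per kb. In control libraries Ucp2 had 477, Slc25a5 110, Slc25a39 93.4, Slc25a3 62.4, Slc25a11 54.2, Slc25a4 37.0, Slc25a1 30.3 and Mpc1 15.8 CPM per kb. By this measure the carriers of adenine nucleotides, phosphate, glutathione, oxoglutarate and citrate lay within 3-fold of each other in EV-treated libraries. Ucp2 stood above all of them in control libraries. The order and the range depend on exon length summed over all bins. Per kb of the single bin with the most counts, Slc25a3 had 399 and Slc25a39 26.6 CPM in EV-treated libraries. Read that way, Ucp2 still stood highest in control libraries, at 2865 CPM per kb against 355 for Slc25a3.

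**Figure D5:**
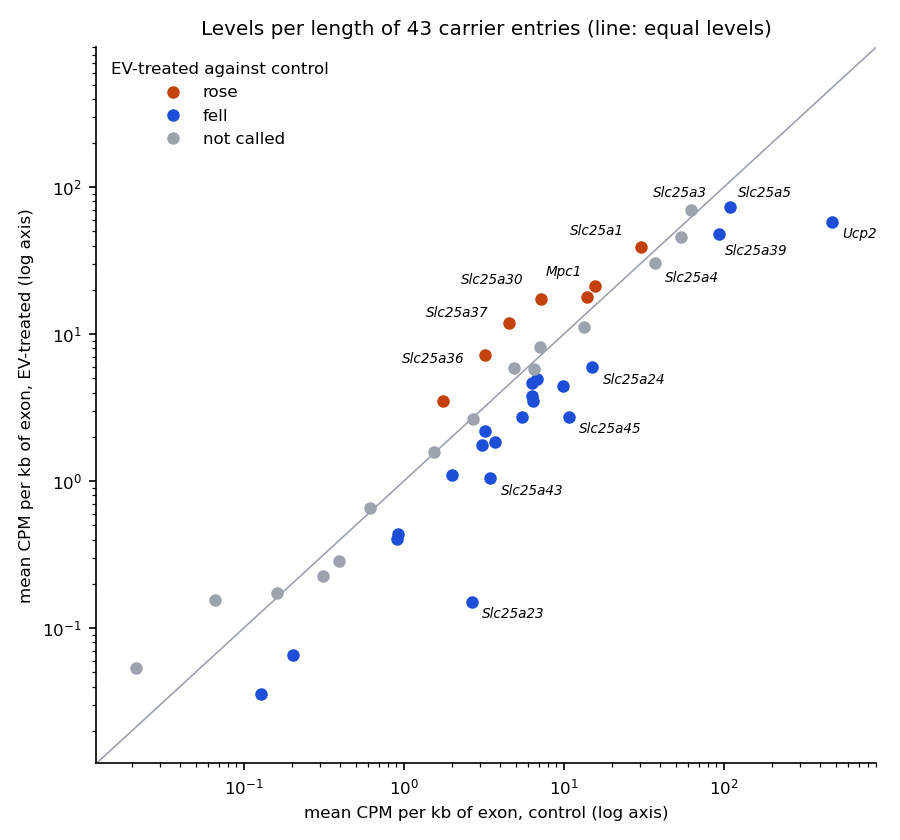
Mean level per length (CPM per kb of exon, log axes) of 43 carrier entries in EV-treated libraries (y axis) and control libraries (x axis); the line marks equal levels, and Ucp3, at 0 in EV-treated libraries, is left out. Ucp2 lies furthest to the right, at 58.4 CPM per kb in EV-treated libraries and 477 in control libraries, and Slc25a23 lies furthest below the line.

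The proteins that carriers work with were read from lists of known function, each described by its counts and median beside the -0.02 of all entries, of which 33.0% rose and 33.5% fell; changes given for them are on the log2 scale. Of the import machinery that inserts carriers into the inner membrane, 6 of 12 genes fell and 2 rose (16.7%; median -0.41; 9 fell and none rose with library totals alone). Agk, a subunit of the inner membrane translocase, fell by 1.69 on the log2 scale, Timm9, a chaperone of the space between the membranes, fell by 2.39, and the joined entry of Timm10b, Dnhd1 and Gm45799 fell by 1.05. Timm8b and Tomm70a, the receptor for carriers on the outer membrane, rose by 0.84 and 0.31. Of genes for mitochondrial mass and biogenesis, 6 of 14 tested fell (42.9%) and 2 rose (14.3%; median -0.27; 11 fell and 1 rose with library totals alone), with Twnk at -0.96, Phb at -1.004 and the joined entry of Phb2 and Gm23547 at -0.78, and Immt, which shapes the cristae, at 0.65 and Hspe1 at 0.42.

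The outer membrane list held the Vdac channels, through which the same solutes pass, and also Mtch1 and Mtch2, which are not counted as channels here. Of its 5 members, 3 rose (60.0%) and 2 fell (40.0%; median 0.61, the value of Mtch2; 1 rose with library totals alone). These shares and this median are therefore not those of the channels alone, of which Vdac1 and Vdac3 rose and Vdac2 fell. Vdac1, the main channel, had 850, 826 and 765 CPM in EV-treated A, B and C, against 159, 167 and 157 CPM in control A, B and C. Every EV-treated library lay far above the controls (log2 fold change 2.34, SE 0.11, adjusted p = 1.1e-07). Mtch2 and Vdac3 rose by 0.61 and 0.63, and Mtch1 and Vdac2 fell by 1.02 and 0.67 on the log2 scale. Of the calcium uniporter list, 5 of 9 genes rose (55.6%) and 3 fell (33.3%, at the share of all entries). The median was 0.33, and -0.04 with library totals alone. The list also held Letm1, which is not counted as part of the uniporter here, so these values are not those of the uniporter alone. Mcu, the pore, rose by 0.86 and Micu3, a regulator of the pore, by 1.45, while Mcur1, Letm1 and the joined entry of Pheta2 and Smdt1 fell by 0.75, 0.40 and 0.44.

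Other inner membrane transporters fell in 8 of 10 cases (80.0%, against 33.5% of all entries) and rose in 2 (median -1.40). Sfxn1, the mitochondrial serine transporter, had 130.6, 123.2 and 113.5 CPM in EV-treated A, B and C, against 25.0, 23.5 and 26.0 CPM in control A, B and C. It rose by 2.30 (SE 0.10, adjusted p = 8.0e-08) while the other 4 sideroflexins fell, Sfxn3 by 1.62 among them. Abcb8 and Abcb10, ATP-driven exporters of the inner membrane, fell by 1.51 and 1.30, and the joined entry of Gm29253, Atg9a and Abcb6 rose by 1.25. In the shuttles that carry reducing equivalents, 4 of 7 genes fell (57.1%) and 3 rose (42.9%; median -1.09): Mdh1 fell by 1.46, Got2 by 1.09 and Gpd1l by 1.64, and Gpd2, the mitochondrial glycerol phosphate dehydrogenase, rose by 1.93, Mdh2 by 0.95 and Got1 by 0.44.

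Of the enzymes that make or use citrate and pyruvate, 6 of 13 rose (46.2%, against 33.0% of all entries) and 3 fell (23.1%, against 33.5%; median 0.45; 5 rose and 5 fell with library totals alone). Acod1, which makes itaconate from aconitate in the matrix, rose by 7.32 (SE 0.18, adjusted p = 2.8e-09), and the malic enzymes Me2 and Me1 by 2.84 and 1.67, while Dlat, Aco1 and Pdha1 fell by 0.59, 0.51 and 0.55. In the carnitine system, which delivers the substrates of Slc25a20, 4 of 7 fell (57.1%) and 1 rose (14.3%; median -0.50; 6 fell with library totals alone). Cpt1a, the entry step of fatty acid oxidation, had 26.0, 22.6 and 25.0 CPM in EV-treated A, B and C, against 179, 138 and 160 CPM in control A, B and C. It fell by 2.70 (SE 0.13, adjusted p = 1.1e-07), with the joined entry of Crot and Gm27941 at -1.61, Crat at -0.63 and the joined entry of Chkb and Cpt1b at 0.48.

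Enzymes of the urea cycle, ornithine and glutamate rose in 6 of 9 tested cases (66.7%, against 33.0% of all entries) and fell in 3 (33.3%, against 33.5%; median 0.83). Arg1 and Arg2, the arginases that make ornithine, rose by 7.71 and 6.01 and Gls2, a glutaminase, by 4.98, whereas Glud1 and the joined entry of Glul and Mir8114 fell by 0.81 and 0.49. Otc and Cps1, the mitochondrial steps of the urea cycle, were below the filter. Of one-carbon and glycine enzymes, 5 of 11 rose (45.5%) and 3 fell (27.3%; median 0.07, and -0.30 with library totals alone). Mthfd1l, Aldh1l2 and Mthfd2, mitochondrial folate enzymes, rose by 5.18, 6.78 and 1.30, and Shmt2, Mthfd1 and Gcsh fell by 1.09, 1.08 and 0.89. Of the iron-sulfur and heme genes, 3 of 11 rose (27.3%) and 2 fell (18.2%), both under the shares of all entries (median 0.08, and -0.29 with library totals alone): Isca1 rose by 1.47, Lyrm4 by 0.57 and the joined entry of Nfs1 by 0.26, and Iscu and Cpox fell by 0.60 and 0.39.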

How the data were processed

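Polyadenylated RNA of 6 microglia samples was sequenced. The authors deposited raw read counts for each exon bin, per the file headers. The submitters' processing notes name GRCm38 and the tools Trimmomatic 0.36, STAR, Subread and DESeq2; how they were run, which annotation was used and whether strand was counted is not given in the sources used here. Each gene entry received the sum of its bins and a name from a symbol table (49298 of 49644 identifiers matched). Entries joined by overlap were kept and named as joined. Entries were kept by filterByExpr, scaled by TMM and tested with edgeR 4.0.16 in R 4.3.3 (glmQLFit and glmQLFTest, no covariate, 2-sided, Benjamini-Hochberg adjustment over 16605 entries). SEs were obtained by dividing each log2 fold change by the root of its F statistic. The common biological coefficient of variation was 0.174; for members with few counts, such as Slc25a27, Slc25a34 and Ucp3, counting error adds to it. Bin usage was tested with diffSpliceDGE. Tests were also run on simulated data with few changed genes, balanced between rises and falls. In the real data 66.5% of entries were called, so those runs do not bear on the scaling. Members, lists and named genes were chosen with earlier results of these data known: full values for calls of at least 2-fold without overlap, the 8 highest members per length and the paralog groups; of each list, up to 3 genes with the smallest p in each direction; and for 6 members up to 2 bins. The 43 members with the same start and end in GENCODE vM21 carry its annotation. Promoters came from RefSeq (GRCm38.p6), matched by symbol. Alternatives were other scalings, filters, DESeq2 1.42.0, limma-voom (limma 3.58.1), blocking by replicate letter, leaving out each library, single bins, single-gene entries and a sex-linked covariate. A few genes among those to be named are left out of the text and figures.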

Additional observations from a re-analysis of the deposited data

How the results depend on the processing

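Every called change of at least 2-fold except those of Slc25a29, Slc25a35 and Slc25a37 stayed called in the same direction under all alternatives run; Ucp3 and Slc25a27 were too low for the stricter filter, and depth leaves the 8 members with at most 18 counts unread. The number of risen members was 5 with upper-quartile scaling, 4 with library totals alone and 5 without a filter, against 8, and 8 to 10 with RLE scaling, a stricter filter (9), DESeq2 (10), limma-voom (9), single bins (9) and single-gene entries; the number of fallen members was 16 (sex-linked covariate) to 29 (library totals alone), against 22. With each library left out, 6 to 9 members rose and 22 to 25 fell. The log2 fold change of Slc25a1 was -0.00060 with library totals alone. With the sex-linked covariate, chosen after seeing the data, 3599 entries rose and 3672 fell over the whole table, against 5482 and 5555; that ratio moved with the groups, and the cause was not tested. The difference in share, EV-treated minus control in percentage points, ran from -0.0127 to 0.0040 for Slc25a31 and from -5.31 to 0.33 for Slc25a33 when a library was left out, positive without EV-treated C in both, and was -0.88 for Slc25a24 when read from single bins. Bin usage differed in 8 members with a stricter filter and in 7 to 13 with a library left out. No label pairs the replicate letters, and the main fit did not pair them. Deviations from the group mean correlated at 0.035, 0.17 and 0.21 between same-letter libraries A, B and C. Every EV-treated library correlated best with its own letter, though EV-treated A reached 0.034 with control B as well. With the letter as a replicate block, 11 members rose and 25 fell, and bin usage differed in 10.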
